A study of Mus musculus with 6 samples.

Results

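The 10 genes described here make the leukotrienes and prostaglandins or break them down: *Alox5ap*, *Alox5*, *Lta4h*, *Ltc4s*, *Ptgs1*, *Ptgs2*, *Ptges*, *Hpgds*, *Tbxas1* and *Hpgd*. They were chosen on a result of these same arrays, namely that *Alox5ap* was lower in microglia without Bhlhe41. All non-control probes whose transcript accession belongs to 1 of these genes were taken. That gave 13 probes, at least 1 for each of the 10 genes, out of 23462 named genes on the array.

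The samples were microglia of young C57BL/6 mice, purified as CD45low CD11b+ Cx3cr1+ cells by flow cytometric sorting after Percoll enrichment. Expression arrays of 3 samples of genotype Bhlhe41 dTomato-Cre/+ (control, B41HET) were compared with 3 of genotype Bhlhe41 dTomato-Cre/dTomato-Cre (knockout, B41KO). Both genotypes carry a reporter knock-in at *Bhlhe41*: dTomato and Cre are made from that locus wherever the gene is active, and the modified allele yields no Bhlhe41 protein. All 6 samples therefore have at least 1 such allele, and no wild-type samples were analysed here. The methods describe each sample as a pool of several mice, while the labels speak of 3 mice per genotype. Tests therefore rest on the spread between pools by the methods, or between animals by the labels.

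Arachidonic acid, freed from membrane phospholipids by phospholipases A2, is the substrate of both branches. In the leukotriene branch, the lipoxygenase Alox5 works with its membrane partner Alox5ap (also known as FLAP) to make leukotriene A4, which Lta4h converts to the neutrophil attractant leukotriene B4 and Ltc4s to the cysteinyl leukotriene C4. In the prostaglandin branch, the cyclooxygenases Ptgs1 and Ptgs2 make prostaglandin H2, which Ptges, Hpgds and Tbxas1 turn into prostaglandin E2, prostaglandin D2 and thromboxane A2. Hpgd, the 15-hydroxyprostaglandin dehydrogenase, inactivates prostaglandins. Microglia and other macrophages express genes of both branches, while neutrophils, mast cells and platelets are known for parts of them.

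Signal on these arrays is a probe's brightness, given here as log2 normalized intensity, so that a difference of 1 is a doubling. Signal also depends on the probe, so it does not order genes by expression, and "the highest signal" below says only by which rule an example was named. Between 39654 and 42719 of 56605 probes (70.1% to 75.5%) were well above background on an array, and none was saturated. Correlation across probes lay between 0.9893 and 0.9928 for arrays of the same genotype and between 0.9848 and 0.989 for arrays of different genotype. All arrays sat on 1 slide, the 3 B41HET arrays and B41KO replicate 1 in row 1, and B41KO replicates 2 and 3 in row 2. *Bhlhe41* itself did not check the labels, since the modified allele may still be transcribed and its 2 probes were 0.38 and 0.33 higher in B41KO, neither past the threshold. All 10 microglia markers, among them *Tmem119* and *P2ry12*, were well above background on all 6 arrays. A gene was called changed at an adjusted p of 0.05 or less with an absolute log2 difference of 0.5 or more, in a limma fit over all probes. For the 10 genes these calls are descriptions and no p-value is given, because the comparison that chose the genes is the one fitted.

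*Alox5ap* was lower in every B41KO sample than in any B41HET sample. Its brightest probe, on transcript NM_009663, read 13.45, 13.52 and 13.51 in the B41HET samples and 12.62, 12.71 and 12.54 in the B41KO samples. The genotypes were separated by a gap of 0.74, wider than the range within either. The means were 13.49 ± 0.04 and 12.62 ± 0.08 (SD, n = 3 each), a log2 difference of -0.87 (standard error 0.08) or 1.83-fold lower in B41KO. A second, dimmer probe designed on NM_001308462 read 7.96, 8.16 and 8.03 against 7.17, 7.51 and 7.36, a log2 difference of -0.71 (standard error 0.12). Both probes met the threshold and neither overlapped between genotypes. B41KO replicate 1, the only knockout array in the slide row of the controls, differed from the B41HET mean by -0.87 on the brightest probe, as the mean of all 3 did.

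*Alox5*, the lipoxygenase that Alox5ap serves, read 8.54, 8.13 and 7.98 in B41HET and 8.11, 7.98 and 7.94 in B41KO. Its values overlapped, since the lowest B41HET sample lay among the B41KO samples, while B41HET replicate 1 stood above all others. The log2 difference was -0.21 (standard error 0.16) and did not meet the threshold, and it was -0.05 without B41HET replicate 1. *Lta4h*, the hydrolase that makes leukotriene B4, read 8.53, 8.39 and 8.24 against 8.03, 8.10 and 7.81, all B41KO samples being lower. Its log2 difference of -0.41 (standard error 0.12) did not meet the threshold. *Ltc4s*, the synthase of leukotriene C4, read 12.91, 12.90 and 12.87 against 12.60, 12.65 and 12.57. Those genotypes did not overlap either, and the log2 difference of -0.28 (standard error 0.06) met neither the fold threshold nor the adjusted threshold.

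**Figure D1:**
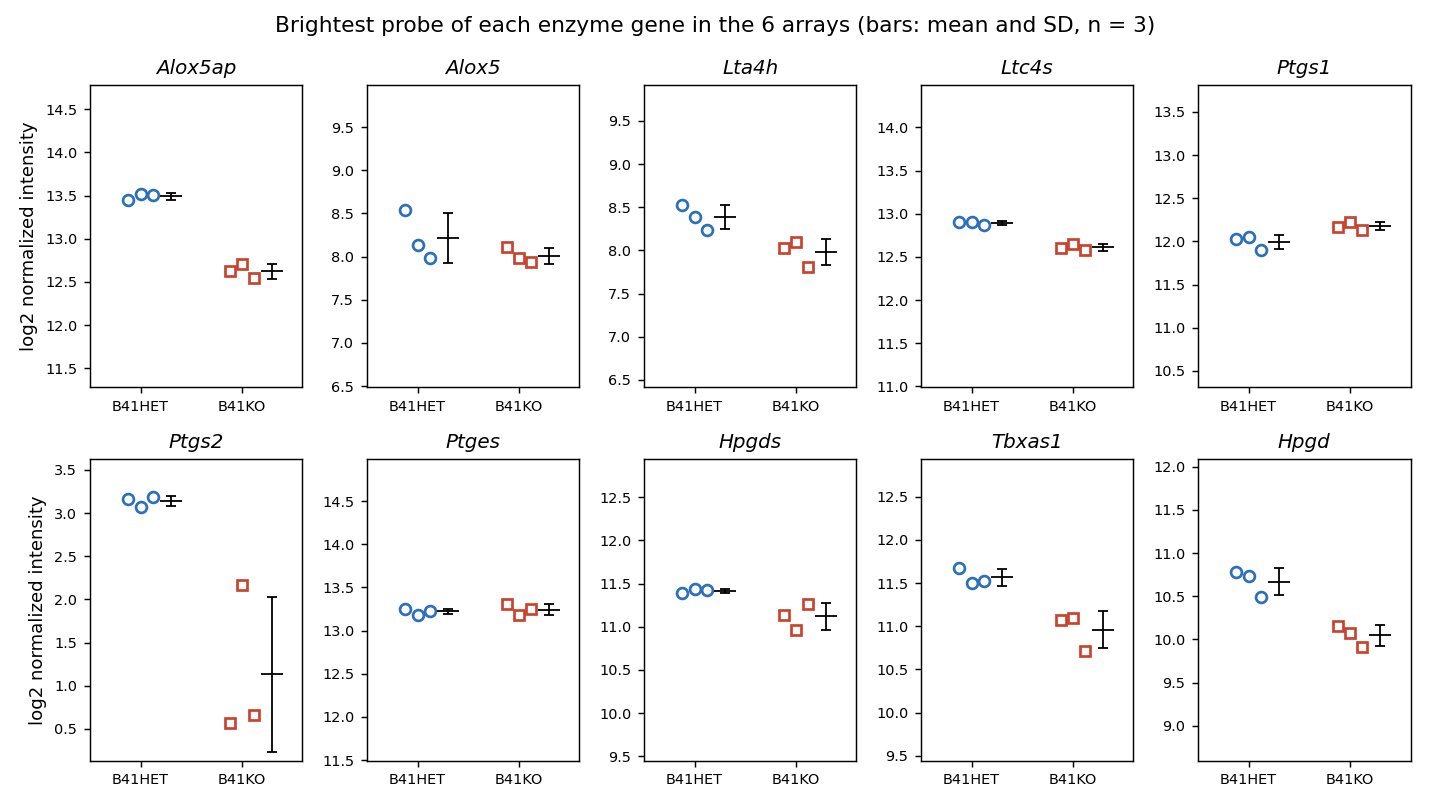
Log2 normalized intensity (y axis, the same span in each panel) of the brightest probe of each gene in the 3 B41HET (circles) and 3 B41KO (squares) arrays, with the mean and SD of each genotype as black bars. *Alox5ap*, *Lta4h*, *Ltc4s*, *Ptgs2*, *Hpgds*, *Tbxas1* and *Hpgd* are lower in all B41KO arrays, *Ptgs1* is higher in all of them, and *Alox5* and *Ptges* overlap.

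The cyclooxygenases differed in direction. *Ptgs1*, the constitutive enzyme, read 12.03, 12.05 and 11.90 in B41HET and 12.17, 12.22 and 12.14 in B41KO, the only one of the 10 genes in which all B41KO samples were higher. Its log2 difference of 0.18 (standard error 0.08) did not meet the threshold. *Ptgs2*, the inducible enzyme, was near the floor of the array, at 3.16, 3.07 and 3.19 in B41HET and 0.57, 2.17 and 0.66 in B41KO. It was well above background on all 3 B41HET arrays and on no B41KO array, so only a bound can be given. With the processed signals used here, *Ptgs2* was at least 1.265-fold lower in B41KO. The fitted log2 difference of -2.01 (standard error 0.44) did not meet the threshold and was -0.16 with median spot signals in place of the processed signals and normexp background correction with an offset of 50, a setting called normexp on median signals below. That setting changes signal and background correction together, and which of them moved the value was not tested.

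Of the terminal synthases, *Tbxas1*, which makes thromboxane A2, read 11.67, 11.50 and 11.52 in B41HET and 11.07, 11.09 and 10.71 in B41KO. All B41KO samples were lower, by a log2 difference of -0.61 (standard error 0.13). The fold threshold was met but the adjusted threshold was not, and the call was gained under 4 of 16 alternatives: normexp on median signals, the filter on dim probes, trended and robust variance, and averaging the probes of each gene. *Hpgds*, the prostaglandin D2 synthase of blood cells and microglia, read 11.39, 11.43 and 11.42 against 11.13, 10.96 and 11.27. Its B41KO samples were all lower and more spread (SD 0.15 against 0.02), with a log2 difference of -0.29 (standard error 0.10) that did not meet the threshold. *Ptges*, the inducible prostaglandin E2 synthase, read 13.25, 13.19 and 13.23 against 13.30, 13.18 and 13.25 on its brightest probe, and the genotypes overlapped. The log2 difference was 0.02 (standard error 0.07), and its sign turned to -0.0154 with arrays scaled to their 75th percentile. The other 2 probes of *Ptges* gave log2 differences of -0.08 (standard error 0.16) and -0.22 (standard error 0.35), and the dimmest was well above background on only 1 array of each genotype.

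*Hpgd*, which inactivates prostaglandins, read 10.78, 10.73 and 10.49 in B41HET and 10.15, 10.07 and 9.91 in B41KO. No B41KO sample reached the lowest B41HET sample, from which the nearest was 0.33 away. Means were 10.67 ± 0.16 and 10.05 ± 0.13 (SD, n = 3 each), a log2 difference of -0.62 (standard error 0.11) or 1.54-fold lower, which met the threshold. That call was lost when any 1 of the 6 samples was left out, with log2 differences of -0.71 to -0.55, whereas *Alox5ap* kept its call in each case.

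By their brightest probes, 2 of the 10 genes were called, *Alox5ap* and *Hpgd*, both lower. Over all 23462 genes 4.01% were called lower and 1.44% higher. In 7 of the 10 genes every B41KO sample was lower than every B41HET sample, as in 18.0% of all genes, and in 1, *Ptgs1*, every B41KO sample was higher, as in 14.2% of all genes. The median log2 difference was -0.35 over the 10 genes and 0.01 over all genes. Nothing is read from these counts, since *Alox5ap* being lower chose the genes. When slide row was added as a block, which leaves B41KO replicate 1 alone to carry the comparison, neither gene was called (log2 differences of -0.87 and -0.51).

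**Figure D2:**
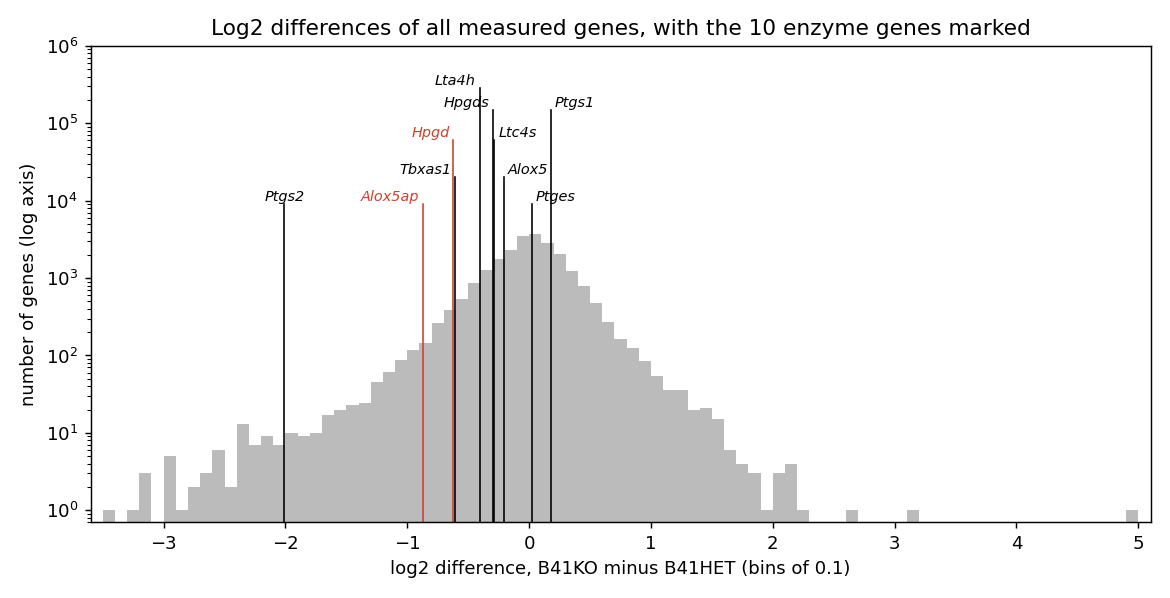
Distribution of the log2 difference, B41KO minus B41HET (x axis, bins of 0.1), over 23462 genes, with the number of genes on a log axis (y axis) and the 10 enzyme genes as vertical lines whose height only spaces the names. *Alox5ap* at -0.87 and *Hpgd* at -0.62 (red) were called lower. *Ptgs2*, at a fitted -2.01, was not called and was well above background on no B41KO array, so only the bound in the text holds for it.

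Bhlhe41 is a basic helix-loop-helix repressor that binds the E-box CACGTG. This motif, a palindrome that reads alike on both strands, was searched in RefSeq promoter windows of 300 bases on GRCm38.p6 (250 before the start site and 50 from it). Of 32851 windows 7.15% hold it, as do 1 of the 9 windows of the enzyme genes and 4 of 54 windows of the other pathway genes described below. *Alox5ap* has no window in that set. The 1 enzyme gene is *Ptgs2*, whose E-box begins 16 bases after the start base. The site is shown because it is the only match among the 9 windows, with the E-box in capitals, and the bases before the start site of *Hpgd*, the other gene called lower, are shown as a window without it, hence in lower case throughout.
Ptgs2, chr1:150100035-150100064, plus strand: tcaccactacgtCACGTGgagtccgcttta
Hpgd, upstream of the start site: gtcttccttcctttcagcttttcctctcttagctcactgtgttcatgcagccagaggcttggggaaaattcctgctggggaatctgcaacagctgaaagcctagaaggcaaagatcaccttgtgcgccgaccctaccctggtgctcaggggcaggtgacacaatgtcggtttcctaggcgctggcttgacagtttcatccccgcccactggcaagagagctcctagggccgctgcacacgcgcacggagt
The *Hpgd* stretch lies at chr8:56294302-56294551 on the plus strand. A match is no measured binding site, and a window without one says only that these letters are not in it.

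Other genes of eicosanoid metabolism and signalling, 56 in 6 groups, were measured in the same fit. Of these, 5 (8.93%) were called lower and 0 higher by limma, beside 4.01% and 1.44% of all genes. At an unadjusted p under 0.05, 12 of the 56 were lower and 3 of the 56 higher, beside 14.4% and 10.6% of all genes. Their median log2 difference was -0.02. Receptors gave 3 of the 5 calls. When slide row entered as a block, *Mgst1* (-2.21) and *Ptger4* (-1.51) were still called, while *Fpr2* (-0.94, adjusted p = 0.0753), *Ptger3* (-1.21, adjusted p = 0.245) and *Cbr1* (-0.60, adjusted p = 0.112) were not.

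*Mgst1*, a microsomal glutathione transferase of the same protein family as Alox5ap, Ltc4s and Ptges, was well above background in every B41HET sample and in no B41KO sample. It read 4.85, 5.18 and 4.66 against 2.69, 2.18 and 2.30, at least 4.25-fold lower in B41KO (limma, adjusted p = 0.00447), and its second probe was called lower too. The bound holds for the processed signals used here. With normexp on median signals the log2 difference of *Mgst1* was -0.51, still called. Of the 10 genes for leukotriene conjugation, export and breakdown it was the only one called. *Mgst3* (log2 difference -0.11, adjusted p = 0.403) and *Cyp4f18*, a leukotriene B4 hydroxylase (0.04, adjusted p = 0.844), were not called and were named for the highest signal among those.

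Among 9 prostanoid receptors, both calls were receptors for prostaglandin E2. The further prostaglandin E2 receptors *Ptger1* (0.04, adjusted p = 0.88 by limma) and *Ptger2*, well above background on no array, were not called. *Ptger4* read 5.96, 5.95 and 5.86 in B41HET and 4.41, 4.12 and 4.46 in B41KO, a log2 difference of -1.60 (standard error 0.11, adjusted p = 0.00362). A dimmer probe of *Ptger4*, well above background on 2 B41HET arrays and on no B41KO array, overlapped between genotypes (-0.32, adjusted p = 0.676), and with the mean over both probes the gene was not called (-0.96). *Ptger3* read 5.64, 5.40 and 5.31 against 4.24, 4.18 and 3.24, a log2 difference of -1.56 (standard error 0.29, adjusted p = 0.0377). Its call was lost without any 1 of 5 of the 6 samples, at log2 differences of -1.74 to -1.47, and held without B41KO replicate 3, at -1.24. With normexp on median signals the differences of *Ptger4* and *Ptger3* were -0.63 and -0.41, the second no longer called. *Ptgdr2*, a receptor for prostaglandin D2 (-0.28, adjusted p = 0.201), and *Tbxa2r*, the thromboxane receptor (0.25, adjusted p = 0.469), were not called, and 4 of the 9 receptors were well above background on no array.

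Of 6 leukotriene and lipoxin receptors, *Fpr2*, a formyl peptide and lipoxin receptor, was called lower. Its brightest probe read 7.26, 7.35 and 7.16 in B41HET against 6.32, 6.19 and 6.38 in B41KO, a log2 difference of -0.96 (standard error 0.09, adjusted p = 0.00717). The second probe of *Fpr2* differed more, by -3.22 (standard error 0.14), so the 2 probes share a direction but not a size. *Ltb4r1*, the high-affinity receptor for leukotriene B4 (-0.46, adjusted p = 0.0521), and *Cysltr1*, a receptor for cysteinyl leukotrienes (-0.21, adjusted p = 0.279), were not called.

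*Cbr1*, a carbonyl reductase that acts on prostaglandin E2, was the single call among 12 other prostaglandin synthases, exporters and breakdown genes. It read 9.98, 9.87 and 9.90 against 9.32, 9.24 and 9.35, a log2 difference of -0.61 (standard error 0.07, adjusted p = 0.0123). The call of *Cbr1* was lost with normexp on median signals (-0.49), without B41HET replicate 1 (adjusted p = 0.0527) and without B41HET replicate 2 (adjusted p = 0.0578). *Akr1b3* (0.02, adjusted p = 0.933) and *Ptges2*, a further prostaglandin E2 synthase (0.10, adjusted p = 0.473), were not called. None of 12 genes for arachidonate release was called, among them *Pla2g4b* (-0.02, adjusted p = 0.924) and *Pla2g6* (-0.17, adjusted p = 0.45), named for the highest signal. The same held for 7 genes of the other lipoxygenases and the Alox5 partner *Cotl1* (0.06, adjusted p = 0.765) and *Alox12b* (-0.15, adjusted p = 0.348) among them.

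**Figure D3:**
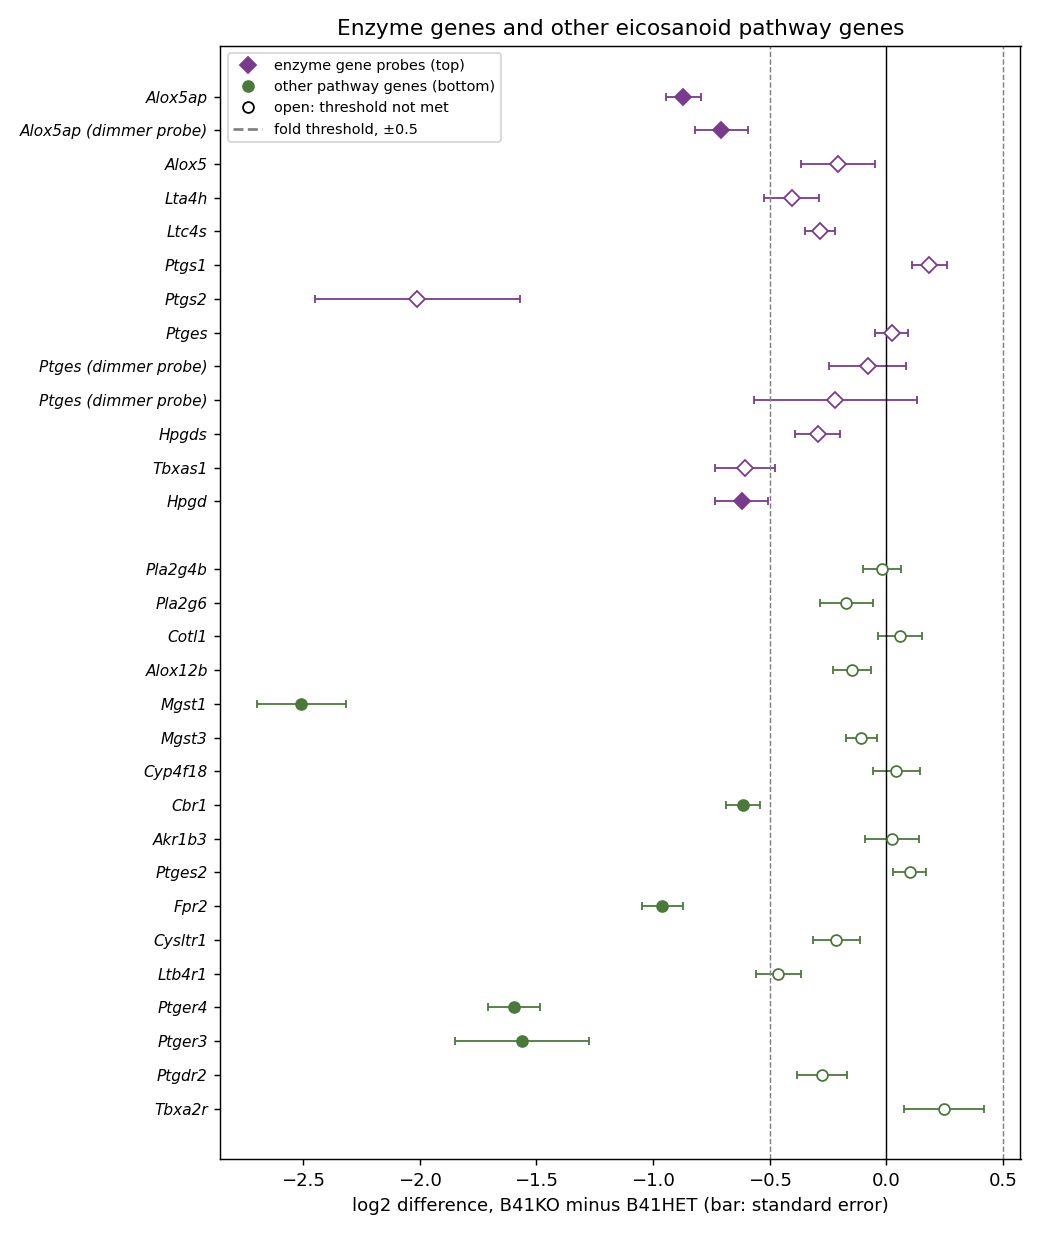
Log2 difference, B41KO minus B41HET (x axis), with its standard error for the 13 probes of the 10 enzyme genes (diamonds) and for other pathway genes (circles). The circles are the other pathway genes named in the text, without *Ptger1* and *Ptger2*. Filled symbols met the threshold and dashed lines mark the fold threshold of 0.5. All filled symbols lie to the left, from *Mgst1* at a fitted -2.51 to *Cbr1* at -0.61. *Mgst1* and *Ptgs2* were well above background on no B41KO array, so only the bounds in the text hold for their differences.

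Genes of other cell types moved with genotype in these sorted cells, and fewer cells of a type cannot be told apart from less RNA per cell. Of 14 neutrophil markers, all well above background on all 6 arrays, 9 were called lower and 0 higher by limma (10 lower and 1 higher at an unadjusted p under 0.05), with a median log2 difference of -2.01. Their summed level lay between 15.73 and 15.86 in B41HET and between 14.88 and 14.94 in B41KO on the log2 scale. *Csf3r* alone gave 40.2% to 42.0% of the sum in B41HET and 77.7% to 79.9% in B41KO, and without it the sum was 14.94 to 15.11 and 12.63 to 12.71. *Ltf*, a granule protein gene, fell most (-3.17, adjusted p = 0.00104), *Mpo* had the highest difference (0.39, adjusted p = 0.157) and *Csf3r* had the highest signal (0.03, adjusted p = 0.844). A sort of CD45low Cx3cr1+ cells is set to leave neutrophils out, and the study describes the sorted samples as of high purity. Neutrophils use the leukotriene branch, so this list stands beside *Alox5ap*, *Lta4h*, *Fpr2* and *Mgst1*, and equally beside *Alox5*, whose values overlapped, and *Ltb4r1*, which was not called. Its part in their values was not tested.

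Monocyte markers were called lower in 4 of 7 genes, with summed levels of 10.42 to 10.52 in B41HET and 8.51 to 8.61 in B41KO. *Plac8* fell most (-2.68, adjusted p = 0.036), *Vcan* had the highest difference (0.20, adjusted p = 0.288), and *Ly6c2* had the highest signal (-2.10, adjusted p = 0.000675). Border macrophage markers were called lower in 6 of 12 genes, and the other 6 also had a negative difference. *Clec10a* fell most (-1.92, adjusted p = 0.00226), *Cd209f* overlapped between genotypes (-0.20, adjusted p = 0.553), and *Stab1*, with the highest signal, missed the fold threshold (-0.49, adjusted p = 0.028). Summed levels of that list, most of them from *Stab1*, were 11.38 to 11.48 and 10.83 to 10.95 (9.24 to 9.34 and 8.38 to 8.49 without it), and *Lyve1* and *Mrc1* were well above background on no B41KO array. The sort of CD45low cells is set to leave CD45-high monocytes and border macrophages out too. These cells also express genes of both branches, and whether they carry part of the differences of the enzyme genes was not tested.

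Mast cells and platelets, which use *Ltc4s*, *Hpgds*, *Ptgs1* and *Tbxas1*, gave other values. Of 11 measured mast cell and basophil markers, 8 were well above background on all 6 arrays, among them *Cma1*, *Mcpt4* and *Fcer1a*, and 3 on no array, *Cpa3*, *Ms4a2* and *Gata2*. *Hdc*, which neutrophils also express, fell by 2.48 (adjusted p = 0.00179), *Gata2* was called lower at that dim signal, and *Ms4a2* had the highest difference (0.16, adjusted p = 0.738). In all, 4 of the 11 were lower and 0 higher at an unadjusted p under 0.05 in limma, among them the basophil genes *Mcpt8* (-0.78, adjusted p = 0.0768) and *Prss34* (-0.58, adjusted p = 0.0697), named after their values were seen, which did not overlap between genotypes. *Tpsb2*, with the highest signal, had a difference of 0.06 (adjusted p = 0.819). The summed level, most of it from *Tpsb2*, was 11.23 to 11.40 in B41HET and 11.18 to 11.42 in B41KO, and without that gene it was 9.07 to 9.16 and 8.40 to 8.43. Of 8 platelet markers none was called by limma (1 had an unadjusted p under 0.05 in each direction), 7 were well above background on all 6 arrays and *Ppbp* on none, and summed levels were 10.64 to 10.69 and 10.57 to 10.72. *Gp9*, with the highest signal, had the lowest difference (-0.40, adjusted p = 0.0811) and *Gp6* the highest (0.61, adjusted p = 0.112). Of the microglia markers 1 of 10, *Fcrls*, was called lower (-0.76, adjusted p = 0.00581). *Csf1r* had their highest difference (0.32, adjusted p = 0.148) and *Cx3cr1* the highest signal (-0.24, adjusted p = 0.14). Calls of lower signal were also made in 2 of 8 endothelial, 1 of 6 dendritic cell and 1 of 5 B cell markers, led by *Ly6c1* (-1.79), *Cd209a* (-1.74) and *Cd79a* (-0.99), and in 0 of 6 T and NK cell markers (limma, 1 at an unadjusted p under 0.05). A positive difference was seen in 1 endothelial, 3 dendritic cell, 3 B cell and 3 T and NK cell markers. In the lists with calls the highest were *Cdh5* (0.22, well above background on no array), *Flt3* (0.14) and *Pax5* (0.08).

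**Figure D4:**
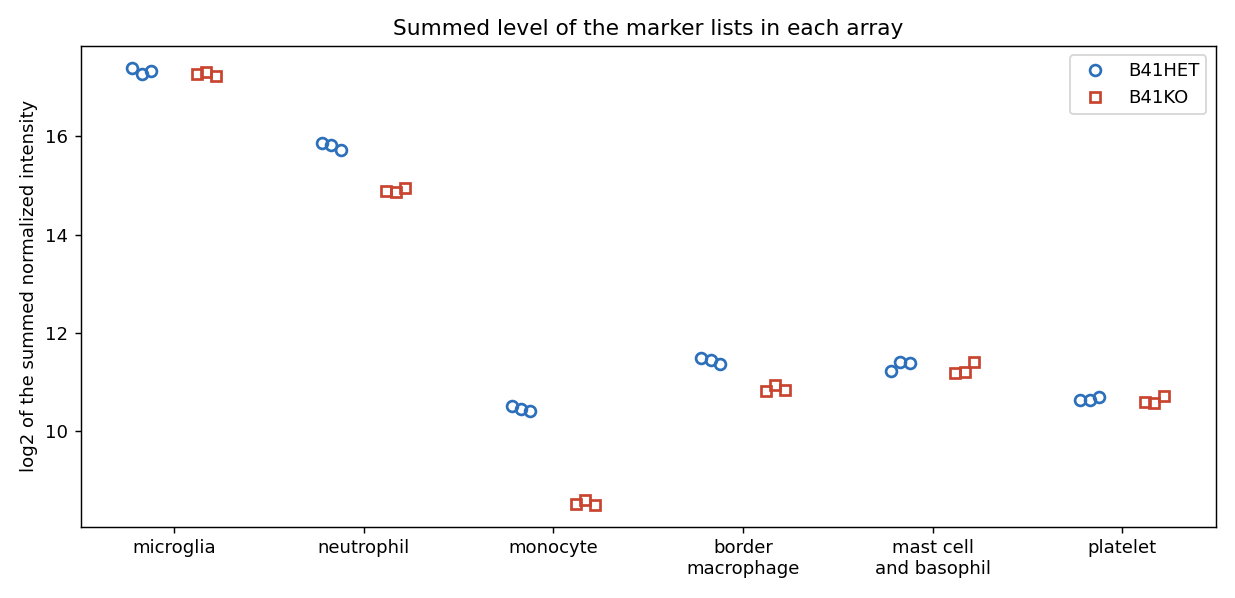
Log2 of the summed normalized intensity (y axis) of 6 marker lists (x axis) in the 3 B41HET (circles) and 3 B41KO (squares) arrays. The neutrophil, monocyte and border macrophage sums do not overlap between genotypes and are lower in B41KO, while the platelet sums overlap, as do those of mast cells and basophils as long as *Tpsb2* is counted.

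The genes whose pattern over the 6 arrays was most like that of *Alox5ap* were *Hipk1* (Pearson r 0.9995), *Tgm2* (0.9994), *Cndp1* (0.9983), *Tceal9* (0.998) and *Pla2g7* (0.9977). They were taken from 1614 genes well above background on all arrays with an absolute log2 difference of 0.5 or more, and the 6 points fall into the 2 genotypes, so that any gene with a clear difference correlates highly. Their log2 differences ran from -1.52 (*Cndp1*) to -0.57 (*Tceal9*), and all 5 were called lower. *Pla2g7*, which encodes the platelet-activating factor acetylhydrolase, read 7.86, 7.92 and 7.90 in B41HET and 6.83, 6.87 and 6.59 in B41KO.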

How the data were processed

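Expression was measured on SurePrint G3 Mouse Gene Expression v2 8x60K arrays in 6 samples, 3 B41HET and 3 B41KO, grouped by the genotype in the labels. The authors deposited 1 scanner output per array (Agilent Feature Extraction 11.5.1.1) with processed intensity, which is background-subtracted within the array and not normalized between arrays. They also deposited a table of log2 values with no statement of their scale. The columns ranked the probes as the arrays did (Spearman correlation of 1), and it was used as an alternative.

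Control spots were left out (59305 of 62976 spots kept), as were spots with an outlier flag on their array (95 to 136). Log2 processed intensity was quantile normalized, averaged over the spots of a probe and fitted with limma 3.58.1 in R 4.3.3, with genotype as the only term, as the methods name quantile normalization and limma with no filter or covariate. Figures were drawn in Python. Adjusted p-values are Benjamini-Hochberg values over 56601 tested probes. Probes were named by transcript accession in a RefSeq table on GRCm38.p6 (59.7% named), and the brightest probe stood for a gene. The design names another build, so probe and gene positions are not given, and the coordinates printed are those of the RefSeq promoter windows.

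The 10 genes and all lists were chosen with earlier results of these data known. The text names every enzyme gene with each probe, each called pathway gene and at most 2 others per group, those with the highest signal. *Ptger1* and *Ptger2* were named besides, as receptors for prostaglandin E2. Of a marker list the lowest, highest and brightest were named, for endothelial, dendritic and B cells only the lowest and highest, and for T and NK cells none. Other markers named for their detection or overlap were chosen after their values were seen. The 5 genes most like *Alox5ap* were named too. In simulated arrays of 3 against 3 with 200 of 56559 probes changed, a log2 change of 1 was called in 41% and a change of 2 in 65%, with 6 of 112 calls false. In the data 2867 probes were called, more than were changed in the simulation, so these shares do not measure the power of the comparison here. The number of arrays limits the precision. Alternatives were the 75th percentile shift, the authors' values, median signals with normexp background correction, a filter on dim probes, outlier spots kept, trended and robust variance, the replicate number or the slide row as a block, the mean over probes, no fold threshold and each sample left out.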

Additional observations from a re-analysis of the deposited data

How the results depend on the processing

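Of the enzyme genes, the call of *Alox5ap* held under 14 of 16 alternatives (log2 differences of -0.91 to -0.79), and that of *Hpgd* under 8 of 16 (-0.71 to -0.51). *Alox5*, *Lta4h*, *Ltc4s*, *Ptgs1* and *Hpgds* kept their direction and were called under none of the 16. The sign of *Ptges* turned to -0.0154 with the 75th percentile shift and to -0.0923 with the mean over probes, and its difference ran from -0.0080 to 0.0543 with 1 sample left out. *Ptgs2* was called under 4 of 16, at differences from -2.57 to -0.16 over all. The filter on dim probes and the trended and robust variance each gave 4 enzyme genes called in place of 2. The filter changes the number of tests and the variance estimates of the fit together, and which of them moved the calls was not tested. *Ptgs2*, well above background on no B41KO array, passed that filter only through its B41HET arrays. Normexp on median signals gave 153 genes called higher and 3 other pathway genes called lower, and the cause was not tested.

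Samples with the same replicate number did not deviate together (correlations of 0.0276, 0.0136 and 0.0478), so the numbers do not pair them. With the replicate block, 0 enzyme genes, 0 other pathway genes, and 19 genes lower and 2 higher were called. With the slide row as a block, 0 enzyme genes, 2 other pathway genes (*Mgst1* and *Ptger4*), and 116 genes lower and 84 higher were called. With 1 sample left out, 281 to 519 genes were called lower and 86 to 182 higher, 1 to 2 enzyme genes and 3 to 6 other pathway genes lower. These fits have fewer samples or residual degrees of freedom. Dim probes limit *Ptgs2*, *Mgst1*, *Ptger3* and the dimmest probe of *Ptges*.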
